A study of Mus musculus with 2 samples.

Results

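The insulin-like growth factor (IGF) system was followed in single cells of the neonatal mouse heart. It was represented by 10 genes, taken by symbol from the 31053 genes of the deposited count matrices: the ligands Igf1 and Igf2, the receptors Igf1r and Igf2r, and the binding proteins Igfbp2, Igfbp3, Igfbp4, Igfbp5, Igfbp6 and Igfbp7.

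Both ligands are small secreted proteins that resemble proinsulin and act mainly through the tyrosine kinase receptor encoded by Igf1r, which drives growth and survival. Igf2r, also known as the mannose-6-phosphate receptor, takes up IGF2 and delivers it to lysosomes, and the secreted binding proteins hold the ligands in the matrix or in the circulation and set how much of them reaches the receptors. Igf2 is an imprinted gene of the fetus, expressed from the paternal allele beside the maternally expressed non-coding RNA H19, and in the embryonic heart it is known as a growth signal of the epicardium and endocardium.

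The samples were hearts of mice at postnatal day 1 (P1) and day 7 (P7), with 1 library per age, each from 3 hearts of a single litter that were pooled before digestion. P1 hearts were digested for 20 min and P7 hearts for 45 min, and live cells were sorted and profiled with a droplet method that tags the 3′ end of each transcript. Without replicates no test between the ages was possible, and all intervals below are 95% intervals that cover counting error only. The sexes of the libraries also differed, with 57336 Xist UMIs at P1 against 12 at P7, while the UMIs of Ddx3y, Kdm5d, Uty and Eif2s3y summed to 18039 at P7 against 2 at P1, so that age, sex, litter and digestion cannot be told apart.

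Values are UMIs, unique tags that count each captured mRNA once, summed over cells and given as counts per 1000000 UMIs of the same cells (CPM). One transcript gives 1 tag whatever its length, so that CPM values of different genes were set side by side without a correction for length. Cells with 200 to 8000 genes and at most 20% mitochondrial UMIs were kept, which left 4991 cells with a median of 10875 UMIs at P1 and 8511 cells with a median of 10104 UMIs at P7, of which 13 shared a barcode sequence between the libraries. Of 63585504 UMIs deposited for P1, 59026295 were in the cells kept, and of 98346195 for P7, 97432007.

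Cells were sorted into 6 gates, each defined by at least 2 UMIs of 1 marker and 0 of the other 5. The markers were Cdh5 for endothelium, Pdgfra for fibroblasts, Myh11 for smooth muscle, Kcnj8 for pericytes, Csf1r for macrophages and Upk3b for epicardium. The endothelial gate held 1485 cells at P1 and 2878 at P7, the fibroblast gate 768 and 1658, the smooth muscle gate 95 and 285, the pericyte gate 133 and 271, the macrophage gate 166 and 161, and the epicardial gate 28 and 10. These gates covered 53.6% of cells at P1 and 61.8% at P7, and the remainder had no marker, a single UMI or markers of several gates. In each gate the check markers that had not defined it were present, as for Pecam1 in the endothelial gate (611 and 681 CPM), Dcn in the fibroblast gate (6961 and 12647 CPM) and Msln in the epicardial gate (1877 and 1599 CPM).

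The epicardial gate at P1 was mixed. Among its 28 cells, 19 carried a UMI of the lung mesenchyme genes Hoxa5, Foxf1 or Tbx4 or at least 5 UMIs of alveolar genes, whereas at P7 this held for 1 of 10 cells, and the summed lung mesenchyme genes stood at 196 CPM at P1. Epicardial results below are therefore set beside values without such cells, which left 9 cells at each age. A single UMI of a lung mesenchyme gene met this rule, and alveolar genes over all cells summed to 236 CPM at P1 and 1.10 CPM at P7. The cells set aside at P7 are therefore not shown to come from lung. A background from free RNA was read in cells with at least 2 UMIs of T or B cell genes and none of the gate markers, called the lymphocyte gate here, with 83 cells at P1 (median 5012 UMIs) and 270 at P7 (median 5060.5 UMIs). At P7, Cd3e was found in 173 of these cells and Cd3d in 183. At P1, Cd3e was found in 1, Cd3d in 49, Cd79a in 28 and the myeloid gene Lyz2 in 52, and alveolar genes summed to 13023 CPM, so that the P1 gate was mixed.

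The 10 genes lie on 7 chromosomes of the mouse genome (GRCm38) and all are protein coding. Igf1 (ENSMUSG00000020053) lies at chr10:87858265-87937042, Igf2 (ENSMUSG00000048583) at chr7:142650766-142666816, Igf1r (ENSMUSG00000005533) at chr7:67952827-68233668 and Igf2r (ENSMUSG00000023830) at chr17:12682406-12769664. Igfbp2 (ENSMUSG00000039323) at chr1:72824503-72852474 and Igfbp5 (ENSMUSG00000026185) at chr1:72857932-72874884 are neighbours on opposite strands, with their 3′ ends facing each other. Igfbp3 (ENSMUSG00000020427) lies at chr11:7206086-7213923, Igfbp4 (ENSMUSG00000017493) at chr11:99041244-99054392, Igfbp6 (ENSMUSG00000023046) at chr15:102144362-102149511 and Igfbp7 (ENSMUSG00000036256) at chr5:77349240-77408041.

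Igf2 was the one member whose counting is uncertain. The annotated gene Gm49394 runs over it on the same strand and shares 99.3% of the last 400 exonic bases of Igf2, the part a 3′ tag falls in, and 62.8% of all its exonic bases. Cell Ranger counts a read only where it fits 1 gene, and Gm49394 had 0 UMIs in both libraries, while H19, next to Igf2, had 74518 UMIs at P1 and 33034 at P7 against 2198 and 1088 for Igf2. The Igf2 values below may therefore be too low, by the same rule at both ages. Igfbp7 shares 21.3% of its last 400 exonic bases with Polr2b, which lies on the opposite strand.

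Over all cells kept, 3 of the 10 genes were at least 2-fold higher at P1 and 0 were at least 2-fold higher at P7, where the same limits held for 8.88% and 4.07% of the 16552 genes with at least 20 UMIs. On the log2 scale the P1 to P7 ratio had a median of 0.59 for the 10 genes and of 0.00 for all genes tested. The binding protein Igfbp2 stood at 12.2 CPM (11.3 to 13.1) in the P1 library and 1.58 CPM (1.34 to 1.85) in the P7 library, a 7.71-fold higher level at P1. Igf2 stood at 37.2 CPM (35.7 to 38.8) and 11.2 CPM (10.5 to 11.8), or 3.33-fold higher, and Igfbp3, the main carrier of IGF1 in blood, at 101 CPM (98.7 to 104) and 43.8 CPM (42.5 to 45.1), or 2.31-fold higher.

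Of the other 7 genes, Igfbp5 came nearest to the limit, with 324 CPM against 174 CPM (log2 ratio 0.90, 0.87 to 0.93). Igf1 had 155 and 97.8 CPM (0.66, 0.62 to 0.71). The receptors differed least, with 99.6 and 83.5 CPM for Igf1r (0.25) and 164 and 153 CPM for Igf2r (0.11). Igfbp4 and Igfbp7 were the members with the higher value at P7, at 600 and 745 CPM (-0.31) and at 2027 and 2736 CPM (-0.43), and Igfbp7 was the most abundant member at both ages. Igfbp6 had 59.3 and 41.7 CPM (0.51), but the direction turned to -0.32 without the 414 cells at P1 and 232 cells at P7 that carried lung genes. In sums over all cells, fewer cells of a type and less RNA per cell cannot be told apart, and the gates are therefore taken in turn below.

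**Figure D1:**
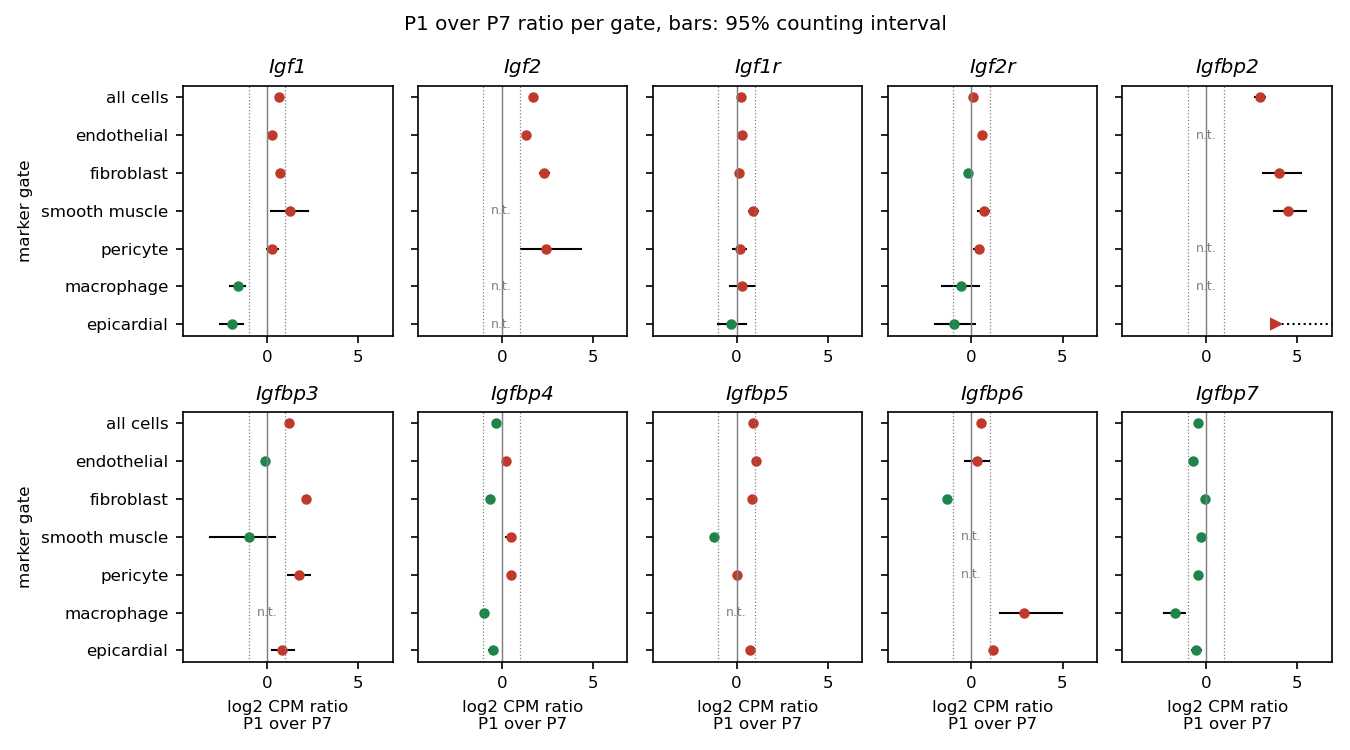
Log2 ratio of CPM at P1 over P7 for each of the 10 genes (panels) in all cells and in the 6 marker gates (rows), with bars for the 95% counting interval, dotted lines at 2-fold, red points for a higher value at P1, green points for a higher value at P7, a triangle for a lower bound against 3 counts, and n.t. for fewer than 20 summed UMIs. Igf2 and Igfbp2 lie to the right of zero in every gate where they reached 20 UMIs, and Igfbp7 lies to the left in every gate. Igf1, Igf1r, Igf2r, Igfbp3, Igfbp4, Igfbp5 and Igfbp6 lie on different sides in different gates.

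The start regions of the 3 genes that were past 2-fold over all cells are shown because the study concerns hypoxia signalling and the letters bound by hypoxia-inducible factors can be looked for there. The sequences are from RefSeq (GRCm38.p6), cover 250 bases before to 50 bases after the start, and run 5′ to 3′ on the strand of the gene, with ACGTG and GCGTG in capitals on either strand (as CACGT and CACGC on the other strand). Igf2 has 4 annotated start windows, of which the third is shown because it holds a core, whereas the other windows hold neither. The windows are chr7:142658755-142659054 (minus strand) for Igf2, chr1:72824230-72824529 (plus strand) for Igfbp2 and chr11:7213874-7214173 (minus strand) for Igfbp3.
Igf2: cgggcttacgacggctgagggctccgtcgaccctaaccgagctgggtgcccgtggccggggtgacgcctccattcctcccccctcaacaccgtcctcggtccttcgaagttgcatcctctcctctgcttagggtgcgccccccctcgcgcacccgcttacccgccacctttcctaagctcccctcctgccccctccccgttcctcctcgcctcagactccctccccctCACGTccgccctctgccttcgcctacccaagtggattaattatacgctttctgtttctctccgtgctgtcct
Igfbp2: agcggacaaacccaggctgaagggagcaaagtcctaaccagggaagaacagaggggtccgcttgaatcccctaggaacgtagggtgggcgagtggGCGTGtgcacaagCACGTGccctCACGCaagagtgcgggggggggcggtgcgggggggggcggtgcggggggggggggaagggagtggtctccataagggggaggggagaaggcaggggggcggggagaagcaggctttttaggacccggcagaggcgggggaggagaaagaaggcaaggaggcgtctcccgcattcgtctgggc
Igfbp3: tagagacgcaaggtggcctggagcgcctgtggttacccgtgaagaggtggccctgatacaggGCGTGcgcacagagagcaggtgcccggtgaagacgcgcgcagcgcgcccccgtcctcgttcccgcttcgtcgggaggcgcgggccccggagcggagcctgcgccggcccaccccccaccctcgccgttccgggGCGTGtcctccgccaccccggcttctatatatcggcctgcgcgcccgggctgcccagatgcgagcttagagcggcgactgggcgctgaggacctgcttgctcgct
The Igf2 window held 1 ACGTG, the Igfbp2 window 2 of each core, with both copies of ACGTG in a single overlapping CACGTG, and the Igfbp3 window 2 GCGTG. Over the 14 start windows of the 10 genes, ACGTG was present in 4 and GCGTG in 7, beside 19.6% and 32.4% of the 32851 windows of all genes. The 3 windows shown were 64.7%, 67.0% and 71.7% G or C, with 24, 18 and 37 CG pairs. Over all genes the medians were 52.7% and 7. The 14 windows ran from 49.7% (Igfbp6) to 76.0% (Igf1r) G or C. Both cores contain CG, and the part of base composition in these counts was not tested. The windows of Igf2r and Igfbp7, which were not past 2-fold over all cells, also held both. A match of 5 letters is a description of the sequence and not a bound site.

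In the gates, members past 2-fold were found in both directions. The endothelial gate had 2 higher at P1 and 0 at P7 of 9 tested, beside 5.31% and 3.93% of all genes tested there, and the fibroblast gate 3 and 1 of 10, beside 5.70% and 4.62%. For smooth muscle the numbers were 2 and 1 of 8, beside 5.22% and 3.69%, and for pericytes 2 and 0 of 8, beside 2.81% and 3.13%. Macrophages had 1 and 2 of 6, beside 2.89% and 4.75%, and epicardial cells 2 and 1 of 9, beside 8.99% and 7.07%. Without cells carrying lung genes the epicardial numbers turned to 1 higher at P1 and 3 at P7, beside 5.93% and 7.13%. The median log2 ratio of the members tested ran from -0.76 in macrophages to 0.58 in smooth muscle, and the median of all genes from -0.08 to 0.03. Igf2 and Igfbp2 were above their P7 level in each gate where they could be tested, whereas Igf1 was past 2-fold in both directions, in different gates.

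**Figure D2:**
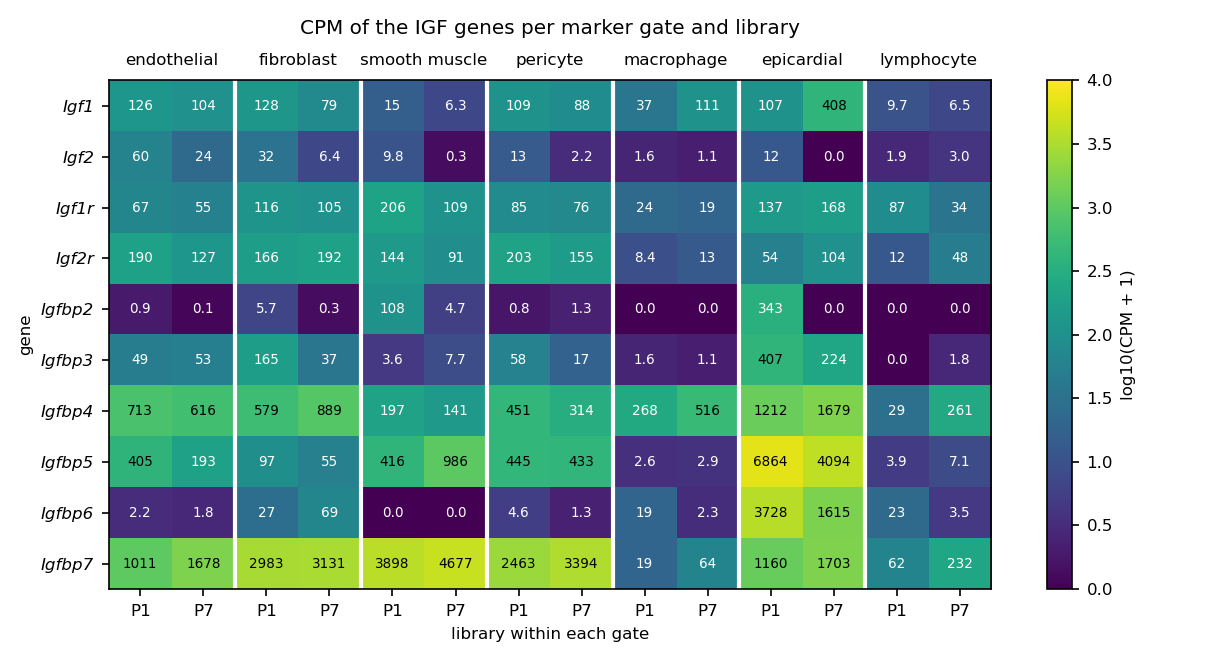
Level of each gene (rows) in the 6 marker gates and the lymphocyte gate at P1 and P7 (columns), with CPM printed in each field and the colour on a log10(CPM + 1) scale. Igfbp5 and Igfbp6 peak in the epicardial gate at both ages, and Igfbp7 is at 1011 CPM or more in every gate other than macrophages and lymphocytes.

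Igf1, the ligand best known as a mediator of growth hormone, had similar levels in several gates at P1. The level was 128 CPM in fibroblasts, 126 CPM in endothelial cells, 109 CPM in pericytes and 107 CPM in epicardial cells, and none of these neighbours differed beyond counting error. Macrophages had 36.6 CPM and smooth muscle 15.1 CPM. At P7 the order changed, with 408 CPM in epicardial cells, 111 in macrophages, 104 in endothelial cells, 87.8 in pericytes, 78.8 in fibroblasts and 6.35 in smooth muscle, where macrophages and endothelial cells, and pericytes and fibroblasts, did not differ beyond counting error.

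Macrophages therefore carried 3.03-fold more Igf1 at P7 (log2 ratio -1.60, -2.02 to -1.20), with a UMI in 21 of 166 cells at P1 and in 53 of 161 at P7. In the lymphocyte gate Igf1 stood at 9.69 and 6.49 CPM, below the macrophages at both ages. The summed fibroblast markers in the macrophage gate were at 127 and 694 CPM, higher at P7 as well, and their part in the Igf1 value was not tested. Epicardial cells had 45 Igf1 UMIs at P1 and 51 at P7, or 3.82-fold more at P7 (-1.93, -2.55 to -1.33), and -2.18 (-3.39 to -1.22) without cells carrying lung genes. After thinning to 2000 UMIs, 1 of the 10 cells at P7 held 46.2% of the Igf1 UMIs, and the median cell had 0. The summed fibroblast markers in the epicardial gate were at 16908 and 16512 CPM, and their part in the Igf1 value was not tested. In smooth muscle, where Igf1 was 2.39-fold higher at P1 (1.25, 0.22 to 2.27), the value rested on 17 and 19 UMIs and turned to -0.48 when each cell was thinned to 2000 UMIs.

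Within the fibroblast gate, the level of Igf1 was highest in cells with at least 2 UMIs of Scx, a transcription factor of tendons and heart valves, or of Wif1, a secreted WNT inhibitor. Here and below, sub-groups within a gate are not exclusive, and a cell can belong to several. The 38 Scx cells at P1 had 576 CPM (523 to 633) against 97.7 CPM in fibroblasts with 0 Scx UMIs, and the 13 Scx cells at P7 had 355 CPM (286 to 435) against 75.6 CPM. The Wif1 cells, 12 at P1 and 9 at P7, had 1341 and 534 CPM. Scx cells made up 4.95% of fibroblasts at P1 (3.52 to 6.73) and 0.784% at P7 (0.418 to 1.34). They carried 26.1% and 4.01% of the fibroblast Igf1 UMIs, so that at both ages most Igf1 UMIs lay in other fibroblasts.

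In the endothelial gate, Igf1 was low in cells with Gja5, a gap junction gene of arteries, at 9.85 CPM at P1 and 12.2 CPM at P7 against 129 and 109 CPM in cells without it. Cells with Prox1, the regulator of lymphatic endothelium, had 305 and 185 CPM, from 14 and 25 cells. In cells with Npr3, a natriuretic peptide receptor known from the endocardium, Igf1 was higher at P7 (116 and 222 CPM, log2 ratio -0.95, -1.21 to -0.68), whereas in cells without Npr3 it was higher at P1 (123 and 98.9 CPM, 0.31, 0.22 to 0.40).

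Igf2 was highest in endothelial cells at both ages, at 60.3 CPM at P1 (56.7 to 64.1) and 23.5 CPM at P7 (21.7 to 25.5). Fibroblasts came next, at 32.4 and 6.43 CPM, followed by pericytes at 13.1 and 2.24 CPM. In macrophages Igf2 had 3 and 2 UMIs, which was at the level of the lymphocyte gate (1 and 5 UMIs). The ratio was 2.56-fold in endothelial cells (log2 1.36, 1.21 to 1.51), 5.03-fold in fibroblasts (2.33, 2.08 to 2.59) and 5.47-fold in pericytes, from 17 and 5 UMIs (2.45, 1.05 to 4.34). The P7 level in pericytes was no higher than in the lymphocyte gate (2.95 CPM), and their share of cells with a UMI was not above it beyond the intervals in either library. Smooth muscle had 11 Igf2 UMIs at P1 against 1 at P7 (log2 ratio 4.35, 2.09 to 10.3). In the epicardial gate, 5 UMIs in 28 cells at P1 and 0 UMIs in 10 cells at P7 were too few for a comparison, and a count of 0 there allows up to 24.0 CPM.

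Npr3 cells had the highest Igf2 level among the endothelial sub-groups. At P1, 197 of 1485 endothelial cells had at least 2 Npr3 UMIs (13.3%, 11.6 to 15.1), and they held 64.0% of the Igf2 UMIs of the gate. At P7, 64 of 2878 cells did so (2.22%, 1.72 to 2.83), with 31.6% of the Igf2 UMIs, while the more numerous Aplnr cells held 45.6%. The Npr3 cells thus stood out in Igf2 at both ages, while their share of the gate was lower at P7. They were also deeper than cells with 0 Npr3 UMIs, with medians of 14084 and 11788.5 UMIs against 10188 and 7651, and the part of depth in their share was not tested.

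Inside the Npr3 cells the level of Igf2 was close at the ages, at 235 CPM at P1 (218 to 254) and 219 CPM at P7 (188 to 253), or 0.10 (-0.13 to 0.35) as a log2 ratio. In cells with 0 Npr3 UMIs it was 24.5 and 16.3 CPM, or 0.59 (0.37 to 0.81) as a log2 ratio. Both ratios were below the 1.36 of the whole gate, in which the share of Npr3 cells also differed between the libraries. The part of that share in the gate ratio was not tested, and cells between the limits are in neither group. In fibroblasts, by contrast, Igf2 was higher at P1 within each larger sub-group, in cells with Dpep1 (36.1 and 9.47 CPM), with Pi16 (43.0 and 4.75 CPM) and with Gdf10 (32.5 and 6.07 CPM).

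**Figure D3:**
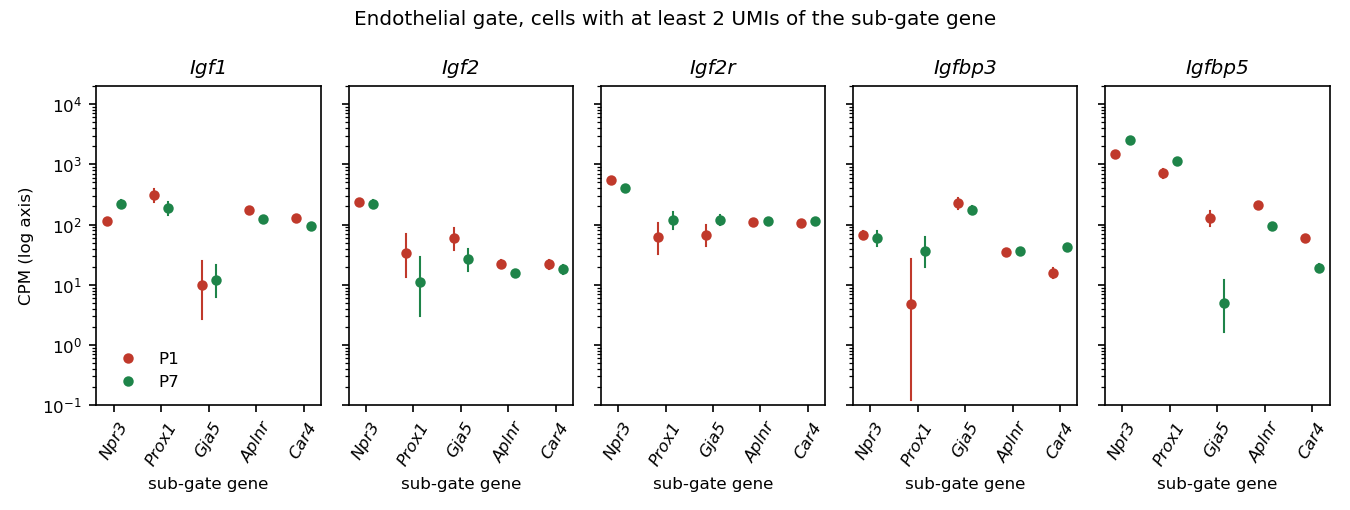
CPM (log axis) of 5 genes in endothelial cells with at least 2 UMIs of Npr3, Prox1, Gja5, Aplnr or Car4, at P1 (red) and P7 (green), with bars for the 95% counting interval. Npr3 cells have the highest Igf2, Igf2r and Igfbp5 at both ages, and Gja5 cells the lowest Igf1 and the highest Igfbp3.

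Igf1r, the receptor that signals for both ligands, was highest in smooth muscle at P1, at 206 CPM (180 to 234), followed by 137 CPM in epicardial cells, 116 in fibroblasts, 84.8 in pericytes, 67.0 in endothelial cells and 23.5 in macrophages. At P7 epicardial cells had 168 CPM (104 to 257), smooth muscle 109 and fibroblasts 105, which did not differ between neighbours beyond counting error, and the order of the others was as at P1. The largest difference with age was in smooth muscle, at 1.89-fold higher at P1 (log2 0.92, 0.67 to 1.16). No gate reached 2-fold for Igf1r. The lymphocyte gate had 87.2 and 33.6 CPM, and after thinning to 2000 UMIs 16.9% of its cells at P1 had a UMI. At P1 no gate had a share of cells above it beyond the intervals. The P1 lymphocyte gate was mixed, however, so that its share is not a measure of background alone. At P7 fibroblasts, smooth muscle and epicardial cells had a share above it. Without cells carrying lung genes the epicardial Igf1r level was 139 and 149 CPM.

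Igf2r was likewise within 2-fold between the ages in each of the 6 gates, from -0.96 in epicardial cells, on 23 and 13 UMIs, to 0.67 in smooth muscle, and the epicardial value was -0.79 on 6 and 10 UMIs without cells carrying lung genes. Shares of cells above the lymphocyte gate were found in endothelial cells, fibroblasts and pericytes at both ages, and in smooth muscle at P1. It was highest in pericytes at P1 (203 CPM) and in fibroblasts at P7 (192 CPM), and lowest in macrophages (8.37 and 12.6 CPM). The endothelial cells with Npr3 had 542 CPM at P1 (515 to 570) and 397 CPM at P7 (356 to 442), against 115 CPM at either age in cells without Npr3. The same cells thus had the highest endothelial level of Igf2 and of the receptor that removes IGF2. The whole endothelial gate had 190 and 127 CPM (0.58, 0.51 to 0.65), whereas in cells without Npr3 the log2 ratio was 0.00 (-0.09 to 0.09). The part of the Npr3 share in the gate ratio was not tested here either.

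Igfbp2 had UMIs in few cells, 141 of 4991 at P1 and 53 of 8511 at P7. At P1 the level was 343 CPM in epicardial cells (290 to 404), 108 CPM in smooth muscle (90.02 to 129) and 5.75 CPM in fibroblasts, and at most 0.927 CPM in the other gates. At P7 it was 4.68 CPM in smooth muscle, and the epicardial gate had 0 UMIs in 10 cells against 145 UMIs in 28 cells at P1, at least 14.3-fold lower against a floor of 3 counts. Of the 145 UMIs, 14 were in the 9 cells without lung genes, which had 115 CPM, and the bound in those cells was at least 4.36-fold. Smooth muscle was 22.5-fold higher at P1 (log2 4.49, 3.73 to 5.45), with UMIs in 13 of 95 cells at P1 and in 7 of 285 at P7. The lymphocyte and macrophage gates had 0 Igfbp2 UMIs at both ages.

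In fibroblasts, Igfbp2 had 75 UMIs at P1 and 10 at P7 (16.0-fold higher at P1, interval of the log2 ratio 3.11 to 5.18), and 85.3% and 70.0% of these were in the Scx cells. The Scx cells had 84.4 CPM at P1 (65.0 to 108) and 27.0 CPM at P7 (10.9 to 55.6), or 1.56 (0.52 to 3.02) as a log2 ratio, whereas fibroblasts without Scx had 0.924 and 0.105 CPM. Igfbp2 and Igf1 were thus both highest in the Scx and Wif1 fibroblasts among the sub-groups examined. Cells outside the gates held 50.2% of all Igfbp2 UMIs at P1 and 80.5% at P7.

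**Figure D4:**
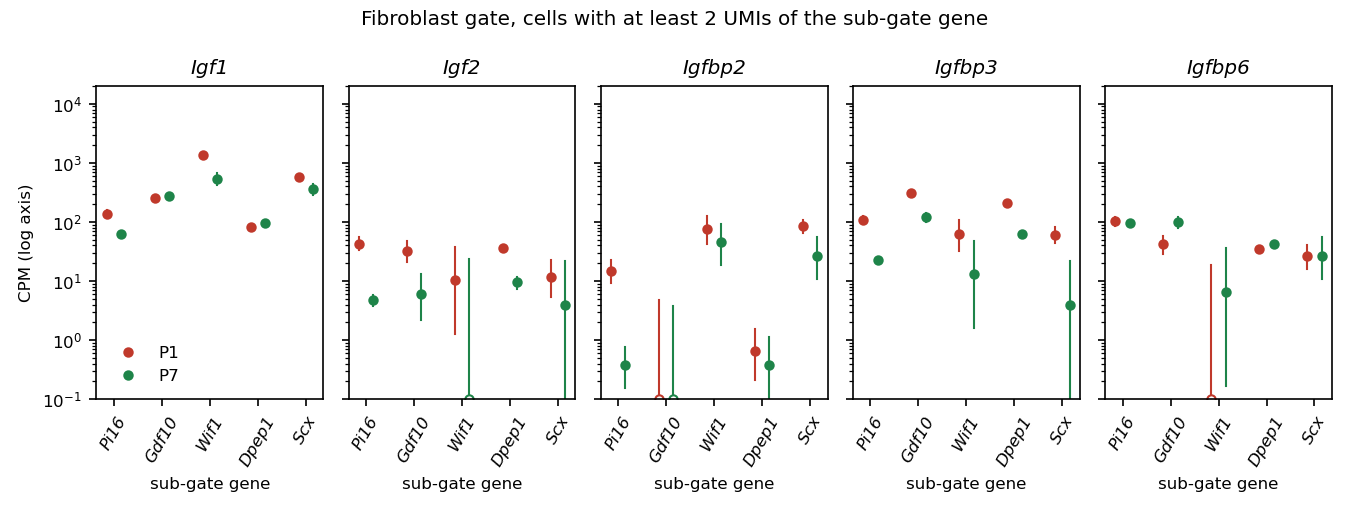
CPM (log axis) of 5 genes in fibroblasts with at least 2 UMIs of Pi16, Gdf10, Wif1, Dpep1 or Scx, at P1 (red) and P7 (green), with bars for the 95% counting interval and open points for 0 UMIs. Igf1 and Igfbp2 are highest in Wif1 and Scx cells, and Igfbp6 in Pi16 cells has nearly the same level at the ages.

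Igfbp3 was highest in the epicardial gate with all its cells, at 407 CPM at P1 (349 to 473) and 224 CPM at P7 (149 to 324). Without cells carrying lung genes the epicardial values were 90.2 and 237 CPM, so that the direction turned (log2 ratio -1.36, -2.55 to -0.34) and fibroblasts, at 163 CPM, were highest at P1. Fibroblasts had 165 and 36.7 CPM, 4.51-fold higher at P1 (2.17, 2.07 to 2.28), and pericytes 57.8 and 17.0 CPM, 3.37-fold higher (1.75, 1.18 to 2.37). Endothelial cells, by contrast, had 48.8 and 52.8 CPM (-0.11, -0.24 to 0.01). The summed fibroblast markers in the pericyte gate were at 5219 and 6374 CPM, against 21112 and 34001 CPM in the fibroblast gate. Their part in the pericyte values of Igf1, Igf2 and Igfbp3 was not tested.

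The fibroblast difference in Igfbp3 was present in sub-groups with a higher and with a lower level. Cells with Gdf10 had 311 CPM at P1 and 119 at P7, those with Dpep1 206 and 63.5, and those with Pi16 108 and 23.0. The endothelial total hid differences between sub-groups, since Gja5 cells had 224 CPM at P1 (180 to 275) and 175 CPM at P7 (150 to 203), while cells with Car4, a carbonic anhydrase of capillaries, had 15.7 and 42.2 CPM (log2 ratio -1.42, -1.75 to -1.11).

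Igfbp4 was found in every gate. The values at P1 and P7 were 1212 and 1679 CPM in epicardial cells (697 and 1579 CPM without cells carrying lung genes), 713 and 616 in endothelial cells, 579 and 889 in fibroblasts, 451 and 314 in pericytes, 268 and 516 in macrophages, and 197 and 141 in smooth muscle. It was within 2-fold between the ages in each gate, but with different signs, from 0.52 in pericytes to -0.95 in macrophages, and without cells carrying lung genes the epicardial ratio went from -0.47 to -1.18 (-1.57 to -0.80). In the lymphocyte gate Igfbp4 stood at 29.1 and 261 CPM, higher at P7 as in the macrophages. Arterial Gja5 cells had the highest endothelial values, at 1765 and 2141 CPM.

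Igfbp5, a binding protein that also binds matrix, had by far the highest level in the epicardial gate, at 6864 CPM at P1 (6617 to 7119) and 4094 CPM at P7 (3747 to 4464). The next gate stood 15.4-fold lower at P1, where pericytes had 445, smooth muscle 416 and endothelial cells 405 CPM, and 4.16-fold lower at P7, where smooth muscle had 986 CPM. The epicardial ratio of P1 over P7 was 0.74 (0.61 to 0.88), and 0.48 (0.31 to 0.66) without cells carrying lung genes. At P1 it was found in each of the 28 epicardial cells and at P7 in 9 of 10.

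With age, Igfbp5 took opposite directions in endothelium and smooth muscle. Endothelial cells had 405 CPM at P1 (395 to 414) and 193 CPM at P7 (187 to 198), 2.10-fold higher at P1 (log2 1.07, 1.02 to 1.12). Smooth muscle had 416 CPM (379 to 455) and 986 CPM (951 to 1022), 2.37-fold higher at P7 (-1.24, -1.39 to -1.10), with a UMI in 61 of 95 cells and 262 of 285. In pericytes Igfbp5 did not differ beyond counting error (445 and 433 CPM, 0.04, -0.11 to 0.19).

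The Npr3 cells also had the highest endothelial Igfbp5 and held 59.1% of its UMIs in the gate at P1 and 44.2% at P7. Their level was 1458 CPM at P1 and 2505 CPM at P7, higher at P7 (log2 ratio -0.78, -0.86 to -0.70), although the gate as a whole was higher at P1. In cells with 0 Npr3 UMIs the values were 171 and 82.2 CPM (1.06, 0.97 to 1.14). Prox1 cells had 709 and 1124 CPM, and Gja5 cells 128 and 5.07 CPM, on 52 and 5 UMIs.

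Igfbp6, which prefers IGF2 over IGF1, was highest by far in the epicardial gate. The 28 epicardial cells at P1, or 0.561% of the cells kept, held 45.0% of its UMIs (1575 of 3498). Of these 1575 UMIs, 433 were in the 9 cells without lung genes. At P7 the 10 epicardial cells held 202 of 4067 UMIs. The level was 3728 CPM at P1 (3546 to 3917) and 1615 CPM at P7 (1400 to 1854), against 27.0 and 68.5 CPM in fibroblasts, the next gate. The ratio of the epicardial gate over fibroblasts was 138-fold at P1 and 23.6-fold at P7. Epicardial Igfbp6 was 2.30-fold higher at P1 (log2 1.20, 0.99 to 1.42), and the ratio was 1.26 (1.00 to 1.52) in the 9 and 9 cells without lung genes, but 0.63 after thinning to 2000 UMIs and 0.68 for the mean of single cells. Smooth muscle had 0 UMIs in 95 and 285 cells, which allows up to 2.67 and 1.00 CPM.

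Fibroblast Igfbp6 went the other way, 2.54-fold higher at P7 (log2 ratio -1.34, -1.51 to -1.18), with a UMI in 128 of 768 cells at P1 and 558 of 1658 at P7. Most of it at P7 lay in cells with Pi16, a gene of adventitial fibroblasts, which made up 8.46% of the gate at P1 (6.59 to 10.7) and 59.2% at P7 (56.8 to 61.6) and held 41.2% and 90.5% of the Igfbp6 UMIs. Dpep1 cells, some of which were also Pi16 cells, held 75.6% at P1, the larger share, and 16.6% at P7. Within Pi16 cells the level was 102 CPM at P1 (86.3 to 120) and 97.4 CPM at P7 (92.98 to 102), or 0.08 (-0.18 to 0.32) as a log2 ratio. Within cells that had 0 Pi16 UMIs it was 17.1 and 12.1 CPM, a ratio of 0.49 (0.12 to 0.89). Neither the Pi16 cells nor those with 0 Pi16 UMIs were lower at P1 beyond counting error, in contrast to the gate as a whole. The part of the Pi16 share in the gate ratio was not tested. Other sub-groups were lower at P1 beyond counting error. Dpep1 cells had 34.6 and 42.4 CPM (-0.29, -0.53 to -0.05), and cells with 0 Dpep1 UMIs 12.7 and 78.0 CPM (-2.60, -3.09 to -2.19). Gdf10 cells had 41.6 and 98.1 CPM (-1.22, -1.86 to -0.65), the latter as high as in Pi16 cells at P7.

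Macrophages had 36 Igfbp6 UMIs at P1 and 4 at P7, or 18.8 and 2.30 CPM (log2 ratio 2.88, 1.55 to 4.99). The lymphocyte gate had 23.3 and 3.54 CPM of Igfbp6, as high as the macrophages at both ages, but at P1 that gate was mixed. Endothelial cells had 2.20 CPM and pericytes 4.62 CPM at P1, and smooth muscle had 0 UMIs. Whether the macrophage values are background was not tested.

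Igfbp7, a relative that binds insulin and IGFs weakly and is known from vessels, was the most abundant member in 4 of the 6 gates at both ages. Smooth muscle had 3898 CPM at P1 and 4677 CPM at P7, fibroblasts 2983 and 3131, pericytes 2463 and 3394, and endothelial cells 1011 and 1678. None of these gates was past 2-fold, and the largest difference was in endothelial cells (log2 ratio -0.73, -0.76 to -0.71). Macrophages, at 19.4 and 63.8 CPM (-1.71, -2.30 to -1.17), were below the lymphocyte gate (62.0 and 232 CPM) at both ages. At P1 that gate was mixed, and whether the macrophage values are background was not tested. The macrophage ratio turned to 0.71 with 1 UMI of Csf1r as the limit.

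Endothelial sub-groups again differed in Igfbp7. Npr3 cells had the lowest level of the 5 at P1, 338 CPM, and 1028 CPM at P7 (log2 ratio -1.61, -1.74 to -1.47). Gja5 cells were the exception in direction, with 2107 CPM at P1 (1969 to 2254) and 863 CPM at P7 (806 to 923), 1.29 on the log2 scale (1.15 to 1.43).

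Taking the 6 binding proteins as one pool, the leading member of each gate was the same at both ages, while several shares differed. Igfbp7 made up 84.3% of the binding protein UMIs at P1 and 80.4% at P7 in smooth muscle, 77.3% and 74.9% in fibroblasts and 72.0% and 81.6% in pericytes. Igfbp4 made up 86.3% and 88.0% in macrophages, and in epicardial cells Igfbp5 led with 50.1% and 43.9%, followed at P1 by Igfbp6 with 27.2%. Igfbp6 made up 17.3% there at P7, and the shares of Igfbp4 and Igfbp7 were 8.84% and 8.46% at P1 and 18.0% and 18.3% at P7. In the 9 and 9 cells without lung genes Igfbp5 made up 48.3% and 43.1%, and Igfbp6 31.9% and 16.6%. The share of Igfbp5 in smooth muscle was 8.99% at P1 and 17.0% at P7. In endothelial cells the mixture moved from 46.4% Igfbp7, 32.7% Igfbp4 and 18.6% Igfbp5 at P1 to 66.0%, 24.2% and 7.59% at P7. The summed level was highest in epicardial cells, at 13714 and 9315 CPM, or 11140 and 8941 CPM without cells carrying lung genes, and lowest in macrophages, at 310 and 586 CPM.

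**Figure D5:**
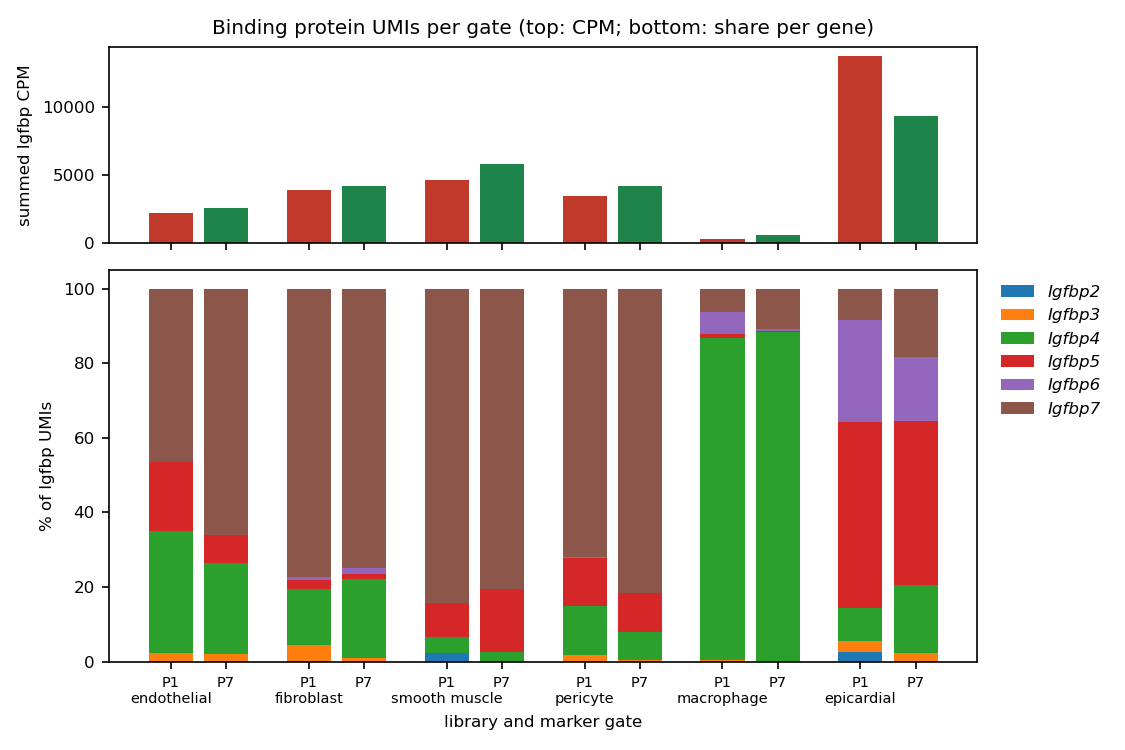
Summed CPM of the 6 binding proteins (top, bars from 0, red for P1 and green for P7) and the share of each in their UMIs (bottom, stacked to 100%) per marker gate and library. Igfbp7 fills most of the bar in smooth muscle, fibroblasts and pericytes, Igfbp4 in macrophages, and Igfbp5 with Igfbp6 in epicardial cells at P1.

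The gate with the highest level was the same at both ages for 6 of the 10 genes, namely Igf2 (endothelium), Igfbp3, Igfbp4, Igfbp5 and Igfbp6 (epicardium) and Igfbp7 (smooth muscle), beside 56.0% among 13764 genes. Without cells carrying lung genes the number was 5, since at P1 Igfbp3 was then highest in fibroblasts and Igfbp4 in endothelial cells, whereas Igfbp2 was highest in smooth muscle at both ages. That Igfbp2 lead over epicardial cells was 1.02-fold at P1 and 1.15-fold at P7, and the Igfbp4 lead at P1 was 1.03-fold. These leads were within counting error. A lead of at least 4-fold over the next gate at both ages was held by 2 genes, Igfbp5 and Igfbp6, beside 6.32% of those genes, and without cells carrying lung genes by Igfbp6 alone, as the lead of Igfbp5 at P7 was then 3.92-fold. The shares over all genes are those with all gated cells, and none is set beside the 2 counts without cells carrying lung genes. Igf1, Igf1r, Igf2r and Igfbp2 changed their highest gate, and for all 4 the first and second gate did not differ beyond counting error at 1 of the ages. After thinning each cell to 2000 UMIs, 8 of the 10 genes had a gate with a larger share of cells with a UMI than lymphocytes in both libraries, with intervals that did not overlap. No share over all genes is set beside this count, so that it describes these 10 genes only. Endothelial cells with an Igf2 UMI were 8.30% at P1 (6.92 to 9.85) and 3.99% at P7 (3.29 to 4.79), against 0 of 83 and 0 of 243 lymphocytes, where the exact interval allows up to 4.35% and 1.51%. Before thinning, 29.7% and 13.4% of endothelial cells had an Igf2 UMI (median depth 10597 and 7719 UMIs), and 1 of 83 and 1 of 270 lymphocytes had a UMI. The exceptions were Igf1r at P1, where the lymphocyte gate was mixed, and Igfbp2 at P7.

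Other genes of the IGF system were read from a list of 37 genes. Over all cells, 32 reached 20 UMIs, of which 7 were at least 2-fold higher at P1 and 0 at P7, beside 8.88% and 4.07% of all genes, with a median log2 ratio of 0.28. Without cells carrying lung genes these counts, beside 7.695% and 4.401% of the 16361 genes tested, were 7 and 1 of 32. The 7 genes towards P1 were the same with and without these cells, and the values that follow are those over all cells. The largest ratio was that of Igf2bp1 (19.5 and 4.85 CPM, 2.01, 1.85 to 2.17), which encodes a fetal RNA-binding protein named for its binding to Igf2 mRNA. Next came H19 (1262 and 339 CPM, 1.90, 1.88 to 1.92) and Pappa, a protease that cleaves binding proteins and frees the ligand (5.30 and 1.79 CPM, 1.57, 1.30 to 1.85). Igf2bp2 (1.23), Igf2bp3 (1.18), Stc2, which encodes an inhibitor of that protease (1.31), and Igfbpl1 (1.48) made up the rest of the 7.

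The list looked different by gate. Fibroblasts had 7 of 30 higher at P1 and 0 at P7, beside 5.70% and 4.62% of all genes, with Pappa (log2 ratio 2.16), Stc2 (2.02) and Igf2bp1 (1.70) as the largest. In endothelial cells, beside 5.31% and 3.93% of all genes, 4 of 29 were higher at P1, led by Igf2bp1 (237 and 18 UMIs, 4.21, 3.56 to 5.03), H19 (1.91) and Igf2bp2 (1.64), and 1 was higher at P7, Htra1, which encodes a protease of binding proteins (33.1 and 92.5 CPM, -1.48, -1.62 to -1.35). Smooth muscle had 4 of 26 higher at P1, beside 5.22% of all genes, with H19 at 217 and 13.0 CPM (4.04, 3.56 to 4.58), and pericytes 2 of 27 in each direction, beside 2.81% and 3.13%. Macrophages had 1 of 20 in each direction, beside 2.89% and 4.75%, and epicardial cells 3 of 14 higher at P1, beside 8.99%. In the 9 and 9 epicardial cells without lung genes 1 of 8 was higher at P1, which was H19, beside 5.93% of all genes. H19 was past 2-fold towards P1 in all 6 gates, although in macrophages (34.0 and 12.6 CPM) it was below the lymphocyte gate (48.5 and 53.7 CPM). At P1 the lymphocyte gate was mixed, and whether the macrophage H19 values are background was not tested.

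Some other genes of the list, named after their values were seen, were within 2-fold over all cells. The insulin receptor gene Insr had 18.9 and 14.2 CPM (log2 ratio 0.42), Irs2 0.37, Akt1 -0.10, Akt2 -0.04, Pik3ca -0.20 and Foxo1 -0.33. Irs1, an adaptor below the receptors, was nearest to the limit towards P7, at 11.9 and 23.1 CPM (-0.95, -1.07 to -0.83). The circulating partners of the liver were at or close to 0, with 0 and 1 UMIs of Igfals and 2 and 0 UMIs of Igfbp1.

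The genes with the most similar pattern over the 12 sums of gate and library were found by correlation of log2(CPM + 10) among 13055 genes. Slc16a1, Lgi4 and Efemp1 were most like Igfbp6 (r from 0.98 to 0.99), and Rbfox2, Thra and Nrep most like Igfbp7 (r from 0.98 to 0.99). Eif3e, Hapln1 and Cdkl1 came nearest to Igf2 (r from 0.93 to 0.95), Tmed4, Ktn1 and Sdr39u1 to Igfbp5 (0.95 to 0.97) and Kif3a, Lats1 and Dnajc10 to Igf1r (0.95 to 0.99). For Igf2r these were Strn3, Cnn3 and Mark3, for Igf1 Tbc1d20, March8 and Sertad2, for Igfbp2 Fam46b, C1qtnf4 and Ppp1r13l, for Igfbp3 Cyp2d22, Tfdp2 and Slc43a1, and for Igfbp4 March8, Erbin and Anxa2. With 12 points from 2 libraries that share depth within a gate, such values describe these sums only.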

How the data were processed

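Live cells of P1 and P7 mouse hearts were profiled with a 3′ droplet kit. The authors deposited raw UMI counts per gene and barcode, 1 matrix per library. Their processing notes name Cell Ranger 3.1.0 and the mouse build mm10 (GRCm38). Here cells were filtered and gated by markers, UMIs were summed per gate and library to CPM, and P1 was compared with P7 as a log2 ratio with 0.5 counts added to each sum. Genes with at least 20 summed UMIs were compared and called past 2-fold. No test was made, since there was 1 library per age. Intervals were exact (Poisson for CPM, conditional binomial for ratios, Clopper-Pearson for shares). Shares of cells were compared after thinning to 2000 UMIs, without 574 cells at P1 and 727 at P7 that were shallower. Doublets were limited by the upper bound on genes and by the requirement of 0 UMIs of other gate markers, and no caller was run. The ratios were tested on simulated data. The genes named were the 10 members, up to 3 genes of the IGF list per direction in all cells and per gate, the 3 genes most like each member, and markers. Others of the list were named after their values were seen. The members, lists and sub-groups were chosen with earlier results of these data known. Alternatives varied cell filters, scaling, thinning, gates and limits, and the B cell background and the removal of endothelial cells with over 1% haemoglobin UMIs were added after seeing the data. Python 3.11.15, numpy 2.4.6, scipy 1.17.1, pandas 2.3.3 and matplotlib 3.10.9 were used.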

Additional observations from a re-analysis of the deposited data

Results flagged for a closer look

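With all cells of each gate, the ratio of P1 over P7 was past 2-fold in opposite directions in different gates for Igf1, Igfbp5 and Igfbp6. How often this held among all genes is not given, so that it describes these genes only. None of these differences was tested, since there was 1 library per age.

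The log2 ratio of Igf1 in smooth muscle lay 2.85 above that in macrophages and 3.19 above that in epicardial cells, but the smooth muscle ratio rested on 17 and 19 UMIs and changed its sign after thinning. Igfbp5 in endothelial cells lay 2.31 above smooth muscle. For Igfbp6, macrophages lay 4.23 above fibroblasts, with a macrophage level no higher than in the lymphocyte gate, and epicardial cells lay 2.55 above fibroblasts, where the share of Pi16 cells was 8.46% at P1 and 59.2% at P7.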

How the results depend on the processing

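Across 20 gene ratios past 2-fold, 253 values were computed under other settings, of which 225 moved by less than the counting interval, 26 moved further in the same direction or towards 0, 2 changed sign and 6 were below 2-fold. The signs that changed were those of Igf1 in smooth muscle after thinning to 2000 UMIs (-0.48) and of Igfbp7 in macrophages with 1 UMI of the gate marker (0.71). Igfbp3 over all cells was 0.98 as a mean of per-cell CPM. Of 118 counts of members, 11 moved by over 1.5 times. With a 1.5-fold limit, 5 members were past it in all cells, where 15.1% of all genes were higher at P1 and 8.23% at P7, 7 in fibroblasts (11.8% and 9.82%), 6 in smooth muscle (12.6% and 11.0%) and 6 in epicardial cells (17.4% and 19.5%). After thinning, 0 were past 2-fold in pericytes, beside 3.75% and 4.01% of all genes, and 1 in epicardial cells, beside 7.52% and 6.42%. With at least 50 UMIs 1 was in pericytes, beside 1.51% and 1.48%. Gating on a marker above the other 5 together gave 1 towards P1 and 4 towards P7 in macrophages, beside 2.78% and 8.25%. In epicardial cells it gave 4 and 1, beside 5.03% and 4.93%. That gating left 1 gene with a 4-fold lead at both ages, as did leaving out cells with lung genes, and no share over all genes is set beside either count. The cause of these changes was not tested. With B cells alone as background, 6 genes were above it at both ages rather than 8, and neither count has a share over all genes beside it. No paired analysis was possible because each age had 1 library. The small epicardial gates limit every epicardial value.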

Other observations

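Cells outside the 6 gates carried a large part of several genes, with 55.0% of the Igf1 UMIs at P1 and 43.9% at P7, and their Igf1 level was 215 CPM (209 to 221) and 121 CPM (117 to 124), above that of every gate at P1. These were 2233 cells at P1 and 2978 at P7, of which 762 and 1299 had UMIs of more than 1 gate marker.

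The antisense gene Igf2os had 199 UMIs at P1 and 125 at P7, and Igf1os had 8 and 9, so that counts on the opposite strand of Igf2 and Igf1 were low. Ins2, an insulin gene known from the pancreas, had 115 UMIs at P1 and 123 at P7, while Ins1 had 0 in both libraries.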
